A study of Mus musculus with 9 samples.

Results

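Expression of 6 epidermal growth factor (EGF) family genes was described across cultured intestinal mesenchyme treated with hedgehog ligands or Vehicle. The genes are 5 ligand genes, Ereg, Btc, Hbegf, Tgfa and Nrg1, and the receptor gene Egfr. They were taken by name from a list of 7 genes, as every probe set whose single gene symbol in the platform annotation was on that list, which gave 16 probe sets of 45037 and 6 genes of 18193. No probe set had Areg as its single symbol in that annotation, so this ligand was not analysed here. All 9 samples came from C57Bl/6J embryos at E18.5, late gestation. The mesenchyme of their small intestine was freed of epithelium, grown for 48 h on collagen in serum-containing medium and then given Sonic hedgehog (Shh), Indian hedgehog (Ihh) or control treatment (Vehicle) for 24 h, with 3 arrays for each. Each array held RNA of wells pooled at random from the 6 wells of a treatment, so the spread between arrays is that between pools of wells, and the ligand dose is not given in the sources used here. The study asked which mesenchymal genes hedgehog ligands regulate.

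EGF family ligands are made as membrane-anchored precursors that metalloproteases release. Epiregulin (Ereg), betacellulin (Btc), heparin-binding EGF-like growth factor (Hbegf) and transforming growth factor alpha (Tgfa) bind the EGF receptor, a tyrosine kinase encoded by Egfr, while neuregulin 1 (Nrg1) acts through the related receptors ErbB3 and ErbB4. Active receptors signal through RAS and the kinase ERK, which switches on immediate early genes such as Fos and Egr1 and also feedback inhibitors. In the gut, mesenchymal cells and macrophages are sources of such ligands for the epithelium, where the receptor supports growth and repair.

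The values are log2 expression, and differences are log2 treated minus control unless a fold is named. A gene was called where the adjusted p of limma, by Benjamini-Hochberg over 18193 genes, was under 0.05, and the level of a gene was read from its brightest probe set. Array medians lay between 5.87 and 5.92, and values near or below them are compressed towards background. The treatment check Ptch1, the hedgehog receptor that the pathway itself induces, was higher on each of the 6 treated arrays (10.35 to 10.98) than with Vehicle (9.06 to 9.25), and its difference for both ligands was 1.48 (adjusted p = 0.000622). The pathway targets Gli1 and Hhip rose by 0.89 and 0.58 (adjusted p = 0.0443 and 0.0243), in the compressed range. Hhip lay below the array medians on all 9 arrays (4.69 to 5.68). Gli1 lay below them with Vehicle (5.01 to 5.44) and at 5.63 to 6.56 on treated arrays. The mesenchymal receptor gene Pdgfra read 11.73 to 12.06 and the macrophage receptor gene Csf1r 12.00 to 12.35 over the 9 arrays, so macrophage transcripts were present as well. The epithelial keratin gene Krt8 varied from 7.54 (Vehicle 3) to 10.62 (Vehicle 1 and Shh 3), unevenly within each group. In these bulk cultures fewer cells of a type and less RNA per cell cannot be told apart. The 3' minus 5' difference of the Gapdh control probe sets, a sign of RNA quality, was -0.08 to 0.03 with Vehicle and -0.19 to -0.04 on treated arrays. Xist, expressed from the inactive X of female cells, was at 10.83 on Vehicle 1 but 6.34 and 6.48 on Vehicle 2 and Vehicle 3. It was at 11.31, 11.24 and 6.43 on Shh 1, Shh 2 and Shh 3, and at 10.04 to 10.66 with Ihh. The Y-linked gene Eif2s3y read 3.24 and 3.17 on Shh 1 and Shh 2 and 8.44 on Shh 3. It read 6.24 to 8.98 with Vehicle and 7.54 to 8.51 with Ihh. The pools thus differed in Xist within 2 of the groups, and such low Eif2s3y was found only on Shh arrays. Eif2s3y was not fitted as a covariate. The part of embryo sex in the differences was not tested beyond a fit with Xist as a covariate.

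Ereg was lower with Shh, and none of the other members passed the threshold in any comparison. For both ligands together against Vehicle 0 of 6 members were called, where 1.51% of all genes were called and 1.07% were called lower. Without adjustment, 2 of the 6, Ereg and Btc, had a p under 0.05, both lower, in that comparison and in each single-ligand comparison. Over all genes an unadjusted p under 0.05 was met with lower values by 8.41% for both ligands, 10.7% for Shh and 5.63% for Ihh, and with higher values by 5.25%, 8.06% and 3.56%. The unadjusted counts given for gene lists are to be read against these shares. For Shh against Vehicle 1 of 6 was called, Ereg, beside 1.73% of all genes and 1.24% called lower. For Ihh against Vehicle 0 of 6 were called, beside 0.649% of genes. With the replicate number as a block in the Vehicle and Ihh arrays alone, 280 genes and 0 members were called. Between Shh and Ihh 0 of 6 were called, beside 0.0110% of genes, which was 2 genes. Tested as single probe sets, 0 of 16 were called for both ligands (0.804% of all probe sets) and 1 of 16, that of Ereg, for Shh (0.946%). The single-ligand comparisons share the Vehicle arrays.

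Ereg (probe set 1419431_at) encodes epiregulin, a ligand of the EGF receptor and of ErbB4. It read 12.84, 12.81 and 12.71 on the Vehicle arrays. With Shh it read 12.15, 12.12 and 12.36. With Ihh it read 12.70, 12.52 and 12.24. The 3 Shh arrays lay well below Vehicle, while Ihh ran from just under the lowest Vehicle array (Ihh 1) down to the Shh range (Ihh 3). Ereg fell by 0.58 ± 0.11 log2 with Shh (SE, n = 3 against 3, limma adjusted p = 0.0371), 1.49-fold lower. With Ihh the difference was -0.30 ± 0.11 (adjusted p = 0.409), 1.23-fold lower. For both ligands it was -0.44 ± 0.10 (adjusted p = 0.0600). All 6 treated arrays lay below all 3 Vehicle arrays, which held for 3.80% of genes. The direct difference between Shh and Ihh was -0.28 with an unadjusted 95% interval of -0.53 to -0.03 and did not pass the threshold (adjusted p = 0.359). The call for Shh ended without Vehicle 1, Vehicle 2, Shh 1, Shh 2, Shh 3 or Ihh 2, at an adjusted p of up to 0.139, and at 0.0708 with Xist as a covariate. The comparison of both ligands with Vehicle passed without Ihh 1, at 0.0310.

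**Figure D1:**
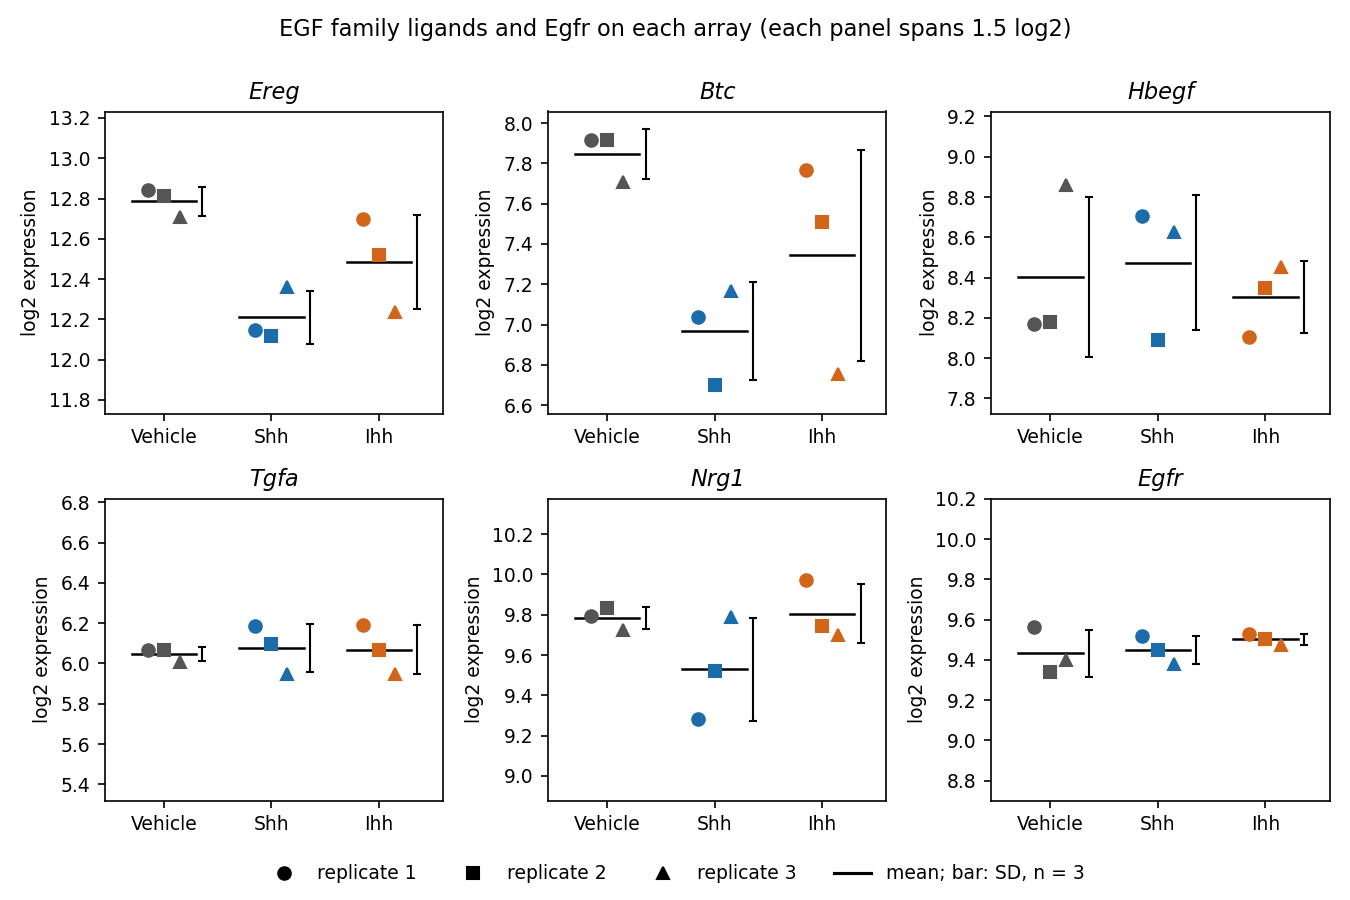
Log2 expression (vertical axis) of the 6 measured genes on each Vehicle, Shh and Ihh array, with 1 point for each array, a line at the mean of each group and a bar of 1 SD (n = 3). All panels have the same span, so that the Shh arrays of Ereg (12.12 to 12.36) and Btc (6.70 to 7.17) are seen below Vehicle (12.71 to 12.84 and 7.71 to 7.92), while the groups of Egfr, Tgfa and Hbegf overlap.

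Btc (1435541_at), betacellulin, had the largest Shh difference of the 6 members but no call. It read 7.92, 7.92 and 7.71 with Vehicle. With Shh it read 7.04, 6.70 and 7.17, and with Ihh 7.77, 7.51 and 6.75. All 3 Shh arrays lay below Vehicle, whereas Ihh 1 lay above Vehicle 3. For Shh the difference was -0.88 ± 0.22 (adjusted p = 0.0811, unadjusted 95% interval -1.38 to -0.38), 1.84-fold lower. For Ihh it was -0.50 ± 0.22 (adjusted p = 0.533) and for both ligands -0.69 ± 0.19 (adjusted p = 0.126). Shh arrays lay fully below Vehicle in 2 of 6 members, Ereg and Btc, and in 11.4% of all genes. Ihh arrays lay fully below Vehicle in 1 of 6, Ereg, and in 8.15% of genes. The dimmer Btc probe set, 1421161_at, lay lower as well, at 5.60 to 5.97 with Vehicle, 5.18 to 5.47 with Shh and 5.02 to 5.55 with Ihh, around and below the array medians. The Shh difference passed the threshold without Ihh 3 (adjusted p = 0.0124), which changes only the estimate of the spread.

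Ereg, Btc and a further ligand gene, Epgn, lie side by side in the mouse genome. In the RefSeq table of GRCm38.p6 the protein-coding genes Epgn, Ereg, Areg and Btc follow each other in this order on chromosome 5. Epgn encodes epigen, another ligand of the EGF receptor, and came from a list of 5 ligand genes outside the members (Egf, Epgn, Nrg2, Nrg3 and Nrg4). Epgn read 7.82, 7.65 and 7.35 with Vehicle. It read 5.79, 6.24 and 6.42 with Shh, and 7.38, 7.01 and 6.19 with Ihh. The Shh arrays were again all below Vehicle, and again Ihh 1 lay within the Vehicle range and Ihh 3 within that of Shh. Epgn fell by 1.46 ± 0.27 log2 with Shh (adjusted p = 0.0330), a change that may be understated since Shh 1 reached below the array medians. With Ihh the difference was -0.75 ± 0.27 (adjusted p = 0.394) and with both ligands -1.10 ± 0.24 (adjusted p = 0.0538). The call for Shh ended without the same 6 arrays as that of Ereg, at up to 0.131, and at 0.0649 with a trended variance and 0.0651 with Xist as a covariate. Of the 5 genes of that list 1 fell with Shh and 0 were called for both ligands or Ihh, with a median difference of -0.02 for both ligands against 0.0012 over all genes, and 4 of the 5 were below the median level of all genes. Nrg4, the next by p, differed by -0.07 (adjusted p = 0.721).

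On the arrays of Ihh a higher Ptch1 went with lower neighbouring ligands only in part. Ihh 3 had the highest Ptch1 and the lowest Ereg, Btc and Epgn of the Ihh arrays. Ihh 1 had Ptch1 at 10.57, between Ihh 2 at 10.49 and Ihh 3 at 10.98 and inside the Shh range of 10.35 to 10.88, although its Ereg, Btc and Epgn values were the closest to Vehicle of all treated arrays. The Gapdh 3' minus 5' difference of Ihh 1, -0.04, lay within the Vehicle range, and that of the 5 other treated arrays, -0.19 to -0.15, did not. The same difference of the beta-actin control was 0.15 to 0.28 with Vehicle. Ihh 1 (0.18), Shh 2 (0.17) and Ihh 2 (0.16) all lay in that range, and Ihh 1 was the highest of the treated arrays. The part of RNA quality in these differences was not tested.

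**Figure D2:**
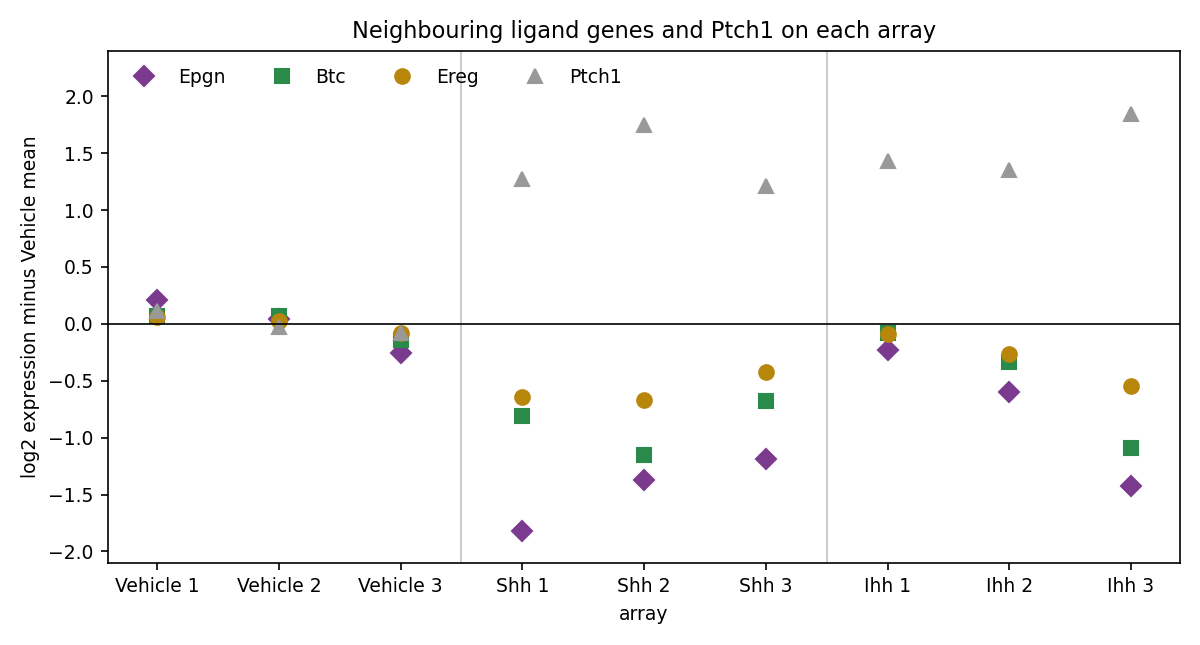
Log2 expression minus the mean of the 3 Vehicle arrays (vertical axis) of Epgn, Btc, Ereg and the hedgehog target Ptch1 on each of the 9 arrays (horizontal axis), 1 symbol for each gene. The ligand genes lie lowest on the Shh arrays and on Ihh 3 and near 0 on Ihh 1, where Ptch1 lies within the range of the other treated arrays.

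The promoters of Epgn and Btc are shown because both genes lay lower on every Shh array than with Vehicle, with that of Egfr, which did not, beside them. No promoter is shown for Ereg. The RefSeq promoter table of GRCm38.p6 held 4 of the 7 listed genes (Areg, Btc, Egfr and Tgfa) and Epgn. Shown are the 250 bases before the annotated start, 5′ to 3′ on the strand of the gene, of Epgn (chr5:91027267-91027516, plus strand), Btc (chr5:91402995-91403244, minus strand) and Egfr (chr11:16751953-16752202, plus strand). Capitals would mark matches to the motifs searched, and there were none.
Epgn: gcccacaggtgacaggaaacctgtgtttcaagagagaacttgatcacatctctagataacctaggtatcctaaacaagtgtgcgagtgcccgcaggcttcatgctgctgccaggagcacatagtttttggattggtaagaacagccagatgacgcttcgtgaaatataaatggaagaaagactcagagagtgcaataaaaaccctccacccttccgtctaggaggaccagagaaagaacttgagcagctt
Btc: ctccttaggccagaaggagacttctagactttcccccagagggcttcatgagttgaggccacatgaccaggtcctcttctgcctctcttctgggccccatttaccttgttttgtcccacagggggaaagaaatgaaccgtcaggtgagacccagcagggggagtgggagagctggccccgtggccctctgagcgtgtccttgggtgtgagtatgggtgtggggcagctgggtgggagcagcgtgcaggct
Egfr: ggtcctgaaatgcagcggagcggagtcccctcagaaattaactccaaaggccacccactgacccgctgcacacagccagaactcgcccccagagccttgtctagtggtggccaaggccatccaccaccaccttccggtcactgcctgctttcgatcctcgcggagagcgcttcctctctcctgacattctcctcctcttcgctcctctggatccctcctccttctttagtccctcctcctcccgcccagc

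The motifs searched on both strands were TGANTCA (AP-1, the site of Fos and Jun proteins), TGACGTCA (CRE, the cyclic AMP response element), GACCACCCA (the site of hedgehog's Gli factors) and GGGNNTTCC (a site of NF-kB). They occur in 6.75%, 1.55%, 0.225% and 4.98% of the 32851 windows of this length in the table. Epgn, Btc, Egfr and Tgfa had 0 matches to each, and Areg had 1 match to the CRE, at position -61 from its start. The Epgn window had 46.8% G and C with 5 CpG, that of Btc 59.6% with 4 and that of Egfr 60.8% with 11, against medians of 52.4% and 6 over all windows. No match says only that these letters are not in this window.

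The other ligands of the EGF receptor gave no call in any comparison. Hbegf (1418350_at), a heparin-binding ligand made by macrophages among others, read 8.17, 8.18 and 8.86 with Vehicle. It read 8.70, 8.09 and 8.63 with Shh and 8.11, 8.35 and 8.45 with Ihh. The groups overlapped, and the spread was wide within Vehicle (SD 0.39, n = 3) as within Shh (SD 0.33, n = 3). For Shh the difference was 0.07 ± 0.21 (adjusted p = 0.892) with an unadjusted 95% interval of -0.39 to 0.53, so changes in either direction of up to about that size could not be told from 0. For both ligands it was -0.0145, and its sign turned without Vehicle 3, at 0.21, since Vehicle 3 was the highest of the 9 arrays. The second probe set, 1418349_at, differed by -0.14 with Shh and -0.19 with Ihh (adjusted p = 0.580 and 0.707).

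Tgfa (1421943_at) read 6.07, 6.07 and 6.01 with Vehicle, 6.19, 6.10 and 5.95 with Shh and 6.19, 6.07 and 5.95 with Ihh. These values lay just above the array medians, in the compressed range, and the groups overlapped. Differences were 0.03 ± 0.08 with Shh and 0.02 ± 0.08 with Ihh (adjusted p = 0.879 and 0.974), and the unadjusted 95% interval for Shh was -0.15 to 0.21. The other 2 probe sets of Tgfa, at 4.71 to 5.24 and 5.95 to 6.12 over the 9 arrays, differed by 0.16 and 0.03 with Shh (adjusted p = 0.466 and 0.841).

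Nrg1, the ligand of ErbB3 and ErbB4 that mesenchyme and nerve supply, was measured by 1 probe set (1456524_at). It read 9.79, 9.83 and 9.72 with Vehicle. With Shh it read 9.28, 9.52 and 9.79 and with Ihh 9.97, 9.74 and 9.70. Shh 1 and Shh 2 lay below every other array, and Shh 3 lay among Vehicle. The difference was -0.25 ± 0.12 with Shh (adjusted p = 0.289, unadjusted 95% interval -0.52 to 0.01) and 0.02 ± 0.12 with Ihh (adjusted p = 0.983). Between Shh and Ihh it was -0.28 ± 0.12, with an unadjusted interval of -0.54 to -0.0084, and did not pass (adjusted p = 0.376). Of 9 measured markers of enteric neurons and glia limma called 0 with Shh (1 higher and 5 lower unadjusted), and their median difference was -0.36 with Shh and 0.01 with Ihh. The part of these cells in the Nrg1 values was not tested.

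Egfr (1435888_at), the receptor gene, was the member with the narrowest intervals. It read 9.56, 9.34 and 9.40 with Vehicle. With Shh it read 9.52, 9.45 and 9.38 and with Ihh 9.53, 9.50 and 9.47. All treated arrays lay inside the Vehicle range. The difference was 0.02 ± 0.07 with Shh (adjusted p = 0.919, unadjusted 95% interval -0.14 to 0.17) and 0.07 ± 0.07 with Ihh (adjusted p = 0.867, interval -0.09 to 0.22). Of the 7 Egfr probe sets, the 6 others differed by -0.11 to 0.16 with Shh, and none was called. The Shh difference of the brightest was near 0 and its sign turned under 5 of 20 alternatives. The next brightest, 1424932_at, differed by -0.11 with Shh (adjusted p = 0.622). Probe set 1460420_a_at read 7.65 to 7.85 with Vehicle and 7.85 to 7.91 with Shh and gave 0.11 ± 0.07 (adjusted p = 0.399). The dimmest, 1457563_at, at 3.42 to 3.83, lay far below the array medians.

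**Figure D3:**
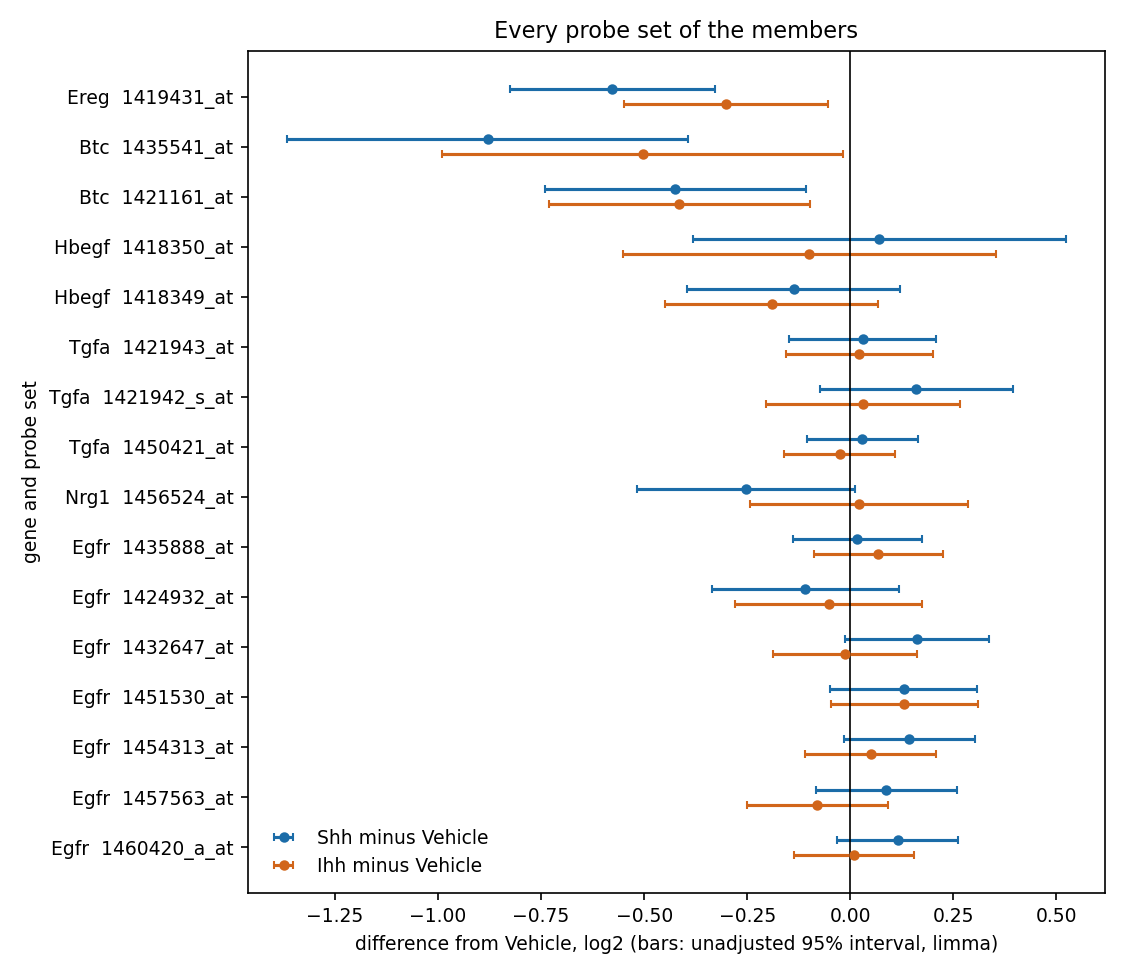
Difference from Vehicle in log2 (horizontal axis) for each of the 16 probe sets of the 6 genes with Shh and with Ihh, with bars of the unadjusted 95% interval from limma over all probe sets. The intervals of Ereg and of both Btc probe sets lie below 0 for each ligand, and those of all 7 Egfr, 3 Tgfa, 2 Hbegf probe sets and of Nrg1 include 0.

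The related receptors gave no call. Of Erbb2, Erbb3 and Erbb4, 0 of 3 were called in any of the 4 comparisons (by limma, unadjusted p below 0.05 was met by 0 for both ligands and by 1, lower, for Shh). Erbb2, the partner receptor without a ligand of its own, differed by -0.11 for both ligands (adjusted p = 0.520) and by -0.15 with Shh (adjusted p = 0.308), all 3 Shh arrays (6.60 to 6.83) being below Vehicle (6.85 to 6.97). Erbb3, a neuregulin receptor of glia and epithelium, differed by -0.32 with Shh (adjusted p = 0.261) and 0.02 with Ihh (adjusted p = 0.985), while its other probe set differed by 0.07 with Shh.

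Of 8 genes for release and trafficking of the ligands, metalloproteases of the ADAM family among them, limma called 0 for both ligands (4 lower and 0 higher unadjusted). Their median difference was -0.15. Adam12, a protease that can release Hbegf, lay at 8.74 to 8.92 on treated arrays and at 9.01 to 9.07 with Vehicle (-0.22, adjusted p = 0.0572). Adam8, a protease of myeloid cells, lay at 7.76 to 8.84 and 8.91 to 9.41 (-0.86, adjusted p = 0.0829). Treated and Vehicle arrays did not overlap in either gene. Of 15 signal transducers limma called 0 (1 higher and 4 lower unadjusted), with a median of -0.11. Map2k1, the kinase that activates ERK, differed by -0.25 (adjusted p = 0.0612) with all 6 treated arrays below Vehicle, and Pik3r1, a regulatory subunit of the lipid kinase PI3K, by 0.23 (adjusted p = 0.179).

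Downstream of the receptor, a feedback inhibitor and several ERK response genes fell with Shh. Of 17 feedback inhibitors 1 fell and 0 rose for both ligands and for Shh, with medians of -0.08 and -0.11. It was Errfi1, a cytoplasmic protein that EGF receptor signalling induces and that blocks the receptor's kinase. Errfi1 read 10.32, 10.19 and 10.22 with Vehicle. It read 9.57, 9.28 and 9.75 with Shh, and 9.93, 9.86 and 9.61 with Ihh. Treated and Vehicle arrays were apart, and the change was -0.58 ± 0.10 for both ligands and -0.71 ± 0.12 for Shh (adjusted p = 0.0290 and 0.0228). With Ihh the difference was -0.44 ± 0.12 (adjusted p = 0.208). The call for both ligands ended without Vehicle 1, Vehicle 2, Shh 1 or Ihh 2, at up to 0.135, and at 0.104 with Xist as a covariate. The call for Shh ended without Vehicle 1, Vehicle 2, Shh 1 or Shh 2, at up to 0.0943, and at 0.0540 with Xist as a covariate. Its other probe set differed by -0.41 with Shh. Dusp5, a nuclear phosphatase of ERK, differed by -0.20 for both ligands (adjusted p = 0.182).

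Of 14 ERK response genes, 3 fell and 0 rose for both ligands, 6 fell and 0 rose for Shh and limma called 0 for Ihh (0 higher and 6 lower unadjusted). Over all genes 1.07% were called lower for both ligands and 1.24% for Shh. This list, like the others, was chosen with earlier results of these data known. The median of the list was -0.31 for both ligands, -0.30 for Shh and -0.19 for Ihh, against 0.0012, 0.0111 and -0.0086 over all genes. Fos, an AP-1 transcription factor, read 10.39, 10.45 and 10.33 with Vehicle, 9.71, 9.66 and 9.72 with Shh and 10.16, 10.04 and 9.85 with Ihh. The 3 groups did not overlap in Fos, with Ihh between the others. Fos changed by -0.53 ± 0.07 for both ligands and by -0.69 ± 0.08 for Shh (adjusted p = 0.00406 and 0.00336), and these calls held without any 1 array, at up to 0.0374 and 0.0248. With Ihh it differed by -0.37 ± 0.08 (adjusted p = 0.0794).

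Egr1, an immediate early zinc finger factor, read 10.42, 10.12 and 10.25 with Vehicle, 9.51, 9.56 and 9.69 with Shh and 10.10, 9.89 and 9.69 with Ihh. Its change was -0.52 ± 0.09 for both ligands and -0.68 ± 0.11 for Shh (adjusted p = 0.0296 and 0.0190). Junb, another AP-1 factor, changed by -0.43 for both ligands and -0.51 for Shh (adjusted p = 0.0363 and 0.0338). With Shh, Etv5 and Etv4, ETS factors induced by ERK, changed by -0.58 and -0.38 and the immediate early gene Ier2 by -0.46 (adjusted p = 0.0213, 0.0468 and 0.0377). For both ligands Etv5, Etv4 and Ier2 differed by -0.39, -0.33 and -0.30 and just missed or missed the threshold (adjusted p = 0.053, 0.051 and 0.100). Between Shh and Ihh none of them passed (limma adjusted p = 0.290, 0.566 and 0.292). The calls of Egr1, Junb, Etv5, Etv4 and Ier2 were less firm than that of Fos. The call of Egr1 for both ligands ended without Vehicle 1, Vehicle 2, Vehicle 3, Shh 1, Shh 2 or Ihh 2, at up to 0.137, and for Shh without Vehicle 1, Shh 1 or Shh 2, at up to 0.0846. That of Junb for both ligands ended without Vehicle 1, Vehicle 2, Shh 1, Ihh 2 or Ihh 3, at up to 0.161, and for Shh without Vehicle 1, Vehicle 2, Shh 1, Shh 2 or Ihh 2, at up to 0.129. The Shh calls of Etv5, Ier2 and Etv4 ended without 4, 6 and 7 of the 9 arrays, Vehicle 1 and Vehicle 2 among them in each, at up to 0.0884, 0.145 and 0.162. With Xist as a covariate Egr1 and Junb for both ligands stood at 0.0912 and 0.114, and Junb, Ier2 and Etv4 for Shh at 0.0643, 0.0683 and 0.0749. The Shh calls of Etv4 and Ier2 also ended with quantile normalization (0.0541 and 0.0527), those of Etv4 and Etv5 with the mean of probe sets (0.0682 and 0.0638) and those of Etv4 and Junb with only the arrays compared (0.0937 and 0.0734). That of Etv4 ended as well with the replicate block (0.0531) and with probe sets tested singly (0.0593). These genes answer to many receptors, and which signal set their levels was not tested.

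**Figure D4:**
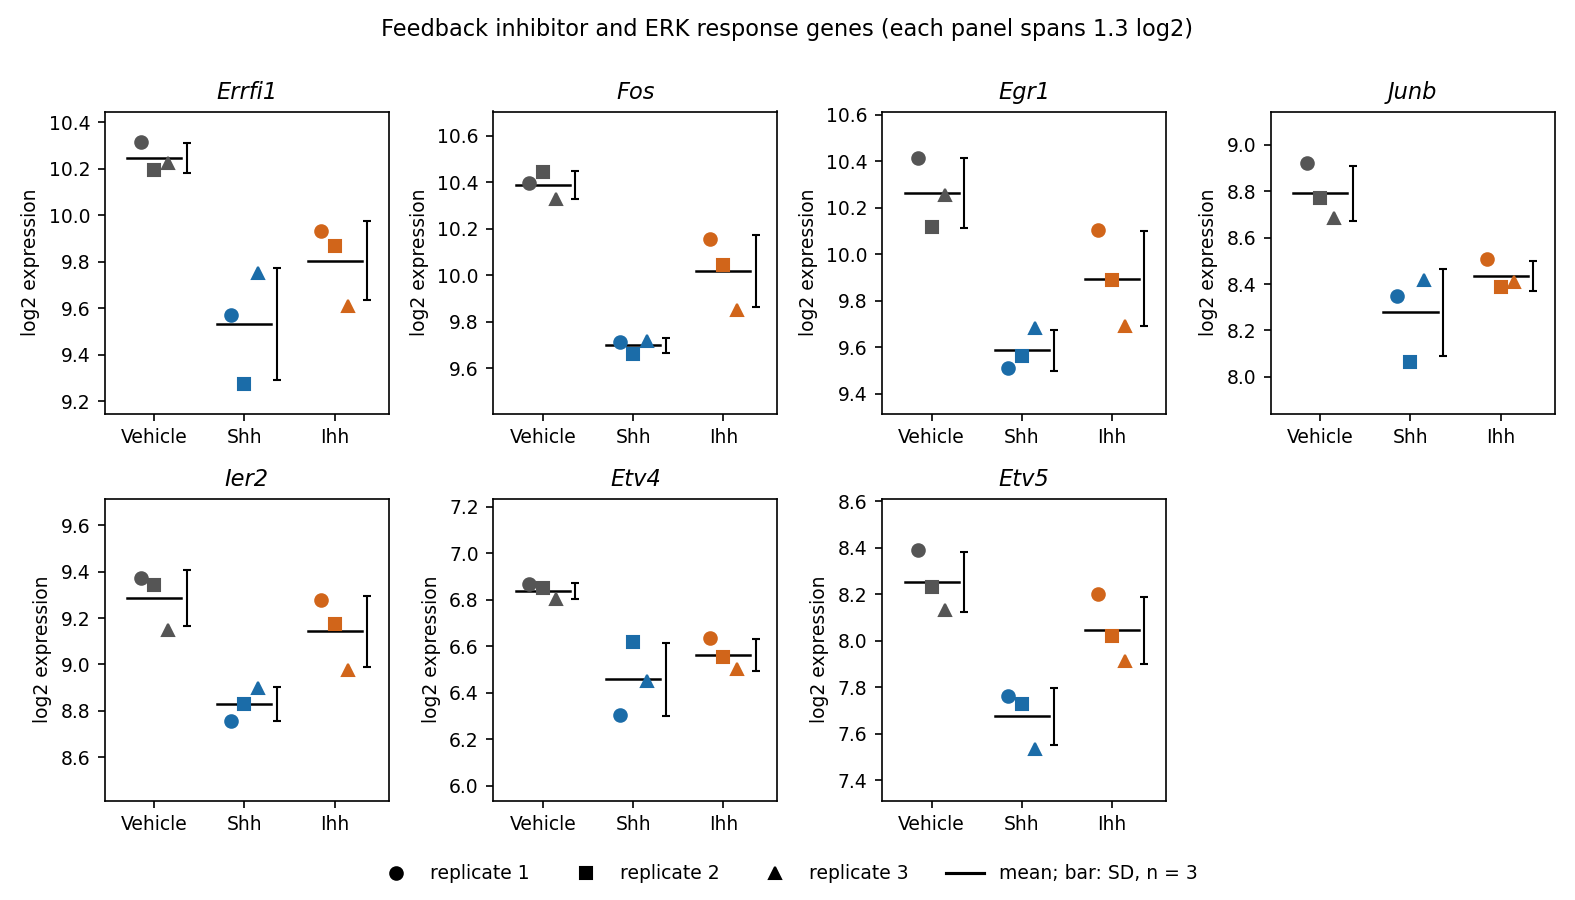
Log2 expression (vertical axis) of the feedback inhibitor Errfi1 and of the 6 ERK response genes that fell with Shh, on each Vehicle, Shh and Ihh array, with 1 point for each array, a line at the group mean and a bar of 1 SD (n = 3). Shh arrays lie below all Vehicle arrays in each panel, and Ihh arrays lie between or overlap the other groups.

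Among all genes, Ereg was set beside those with the most similar profile. Likeness was the root mean square difference of the 9 array values, each gene taken minus its own Vehicle mean, over 9096 genes at or above the median level. The closest were Trib1, a pseudokinase, at 0.06 log2, Dusp2, a phosphatase of ERK-type kinases, at 0.07, and Notch4, a Notch receptor of endothelium, at 0.08. Trib1 read 7.66 to 7.84 with Vehicle, 7.18 to 7.36 with Shh and 7.29 to 7.68 with Ihh. Dusp2 and Notch4 also had Shh and Ihh 3 low and Ihh 1 near Vehicle, which follows from how these genes were picked. For both ligands their differences were -0.38, -0.42 and -0.38 (adjusted p = 0.0656, 0.0616 and 0.106), so none of the 3 was called, as Ereg was not.

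Markers of other cell types moved with these genes in part. Of 10 endothelium markers 0 rose and 2 fell with Shh, Flt1 (-0.79, adjusted p = 0.0245) and Cdh5 (-0.59, adjusted p = 0.0464), calls that each ended without 6 of the 9 arrays, Vehicle 1 and Vehicle 2 among them. Without adjustment 7 of the 10 were lower and 0 higher with Shh, and likewise for both ligands. With Ihh 2 were lower and 0 higher. The median difference of these markers was -0.35 with Shh, -0.27 for both ligands and -0.16 with Ihh. The mean level of the endothelial list was 8.81 to 9.03 with Vehicle, 8.49 to 8.57 with Shh and 8.54 to 8.96 with Ihh, highest on Ihh 1. Ihh 1 was likewise the highest treated array for Ereg. It was also the highest treated array in the fibroblast and mesenchyme (10.85), enteric neuron and glia (8.31) and ERK response (8.80) lists. The same held for the signal transducers (9.42) and feedback inhibitors (8.95). It did not hold for the macrophage, smooth muscle, epithelium, mesothelium or ligand release lists. The Cdh5 call also ended under 5 of the other settings, and that of Flt1 at 0.0525 with Xist as a covariate. Of 18 macrophage markers 2 rose and 4 fell for both ligands, with a median difference of 0.02, and their mean level was 10.06 to 10.32 with Vehicle, 9.99 to 10.04 with Shh and 10.00 to 10.10 with Ihh. The endotoxin co-receptor Cd14 changed by -1.66 and the macrophage marker Adgre1 by -1.04 (adjusted p = 3.09e-05 and 0.000269), with values of -1.63 and -1.06 for Shh and -1.70 and -1.02 for Ihh. The fractalkine receptor gene Cx3cr1 changed by 0.87 and Laptm5 by 0.37 (adjusted p = 0.0384 and 0.0347). The calls of Cd14, Adgre1 and Itgam held without any 1 array, whereas those of Laptm5 and Lyz2 each ended without 8 of the 9 arrays and that of Cx3cr1 without 6, at up to 0.143, 0.190 and 0.167. Of 16 epithelium markers limma called 0 for both ligands (0 unadjusted), 11 lay below the median level of all genes, and their mean level ranged over 5.49 to 6.83 with Vehicle, 5.45 to 6.79 with Shh and 5.84 to 6.62 with Ihh. Fibroblast and mesenchyme markers, 14 in number, gave 0 calls by limma for both ligands (2 higher and 6 lower unadjusted), 1 gene that fell with Shh, Fn1 (-0.32, adjusted p = 0.0489, a call that ended without 7 of the 9 arrays, at up to 0.167, and under 4 other settings), and a mean level of 10.77 to 10.89 with Vehicle, 10.61 to 10.77 with Shh and 10.70 to 10.85 with Ihh. Of the 6 mesothelium markers 0 were called by limma (1 lower unadjusted), and of the 9 smooth muscle markers 2 rose, with a mean level of the list of 8.84 to 9.05 with Vehicle, 9.04 to 9.50 with Shh and 8.94 to 9.49 with Ihh. The part of these cell types in the values of Ereg, Btc and Epgn was not tested.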

How the data were processed

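Expression was measured on Affymetrix arrays of biotin-labelled cRNA from 6 ug of total RNA, 3 arrays each for Vehicle, Shh and Ihh. The submitters' processing notes name GCOS and RMA without a version. The deposited values were log2 expression of 45101 probe sets, between 2.78 and 14.20, a scale read from that range. RMA normalizes between arrays, so a shift shared by all genes would not be seen. The number of arrays limits the precision.

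Gene names came from the platform annotation (34945 with 1 symbol, 932 with several, 9160 with none, 64 controls). Entrez identifiers in the RefSeq table of GRCm38.p6 matched 34741 and changed 0 symbols. Each gene was read from the brightest, by mean over arrays, of the probe sets that carried only its symbol. One limma model (version 3.58.1, R 4.3.3) took in all 9 arrays with a mean per treatment (6 residual and 3.88 prior degrees of freedom), with two-sided p adjusted by Benjamini-Hochberg over all genes of a comparison. The fit was tested on simulated data. The members and lists were chosen with earlier results of these data known. Named were all members, the treatment check, genes of the pathway lists called in any comparison or among the 2 smallest p of a list, up to 3 genes closest in profile to the member with the smallest p, and a few markers. Pdgfra, Csf1r, Krt8, Adgre1, Itgam, Cx3cr1, Laptm5, Lyz2, Fn1, Xist and Eif2s3y were chosen after their values were seen. Alternatives were another quantile normalization, centring on array medians, removal of dim genes (under the 40th percentile) or less specific probe sets, averaging over the probe sets of a gene, single probe sets, a trended robust variance, array weights, a replicate block, Xist as a covariate, only the groups compared, and each array left out. Deviations of same-numbered arrays from their group means correlated at 0.23 to 0.54 between Vehicle and Ihh. Between the other groups these correlations were -0.30 to 0.14. The main model, which gave the Ihh results above, did not pair arrays by number. Replicate numbers entered only the fits with a replicate block. The labels state only that wells were pooled randomly.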

Additional observations from a re-analysis of the deposited data

How the results depend on the processing

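Ereg kept its negative sign under all 20 alternatives for Shh and passed the threshold under 13 of them, with differences of -0.65 to -0.53 and adjusted p of 0.0133 to 0.139. For both ligands it passed under 4 of 19 (0.0147 to 0.229). Btc kept its sign under all alternatives and passed under 3 of 20 for Shh and 1 of 19 for both ligands. No member was called for Ihh or between the ligands under any alternative. The cause of the following shifts was not tested.

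Members called for both ligands were 1 after centring of each array, 1 when dim genes were dropped and 2 with array weights, against 0. For Shh they were 2 with array weights, 2 with only the arrays compared and 0 with Xist as a covariate, against 1. Member probe sets called for both ligands were 1 with array weights, against 0. Genes called with array weights were 1126 for both ligands, 1017 for Shh and 498 for Ihh, against 274, 314 and 118. With Xist as a covariate they were 156, 200 and 74, and 1 between the ligands, against 2 there, where only the arrays compared gave 0. With 1 array left out the counts were 99 to 416 genes and 0 to 1 members for both ligands, 80 to 675 and 0 to 2 for Shh, 53 to 229 genes for Ihh, 1 to 2 genes between the ligands and 0 to 1 member probe sets. Gene counts against Vehicle were lowest without Vehicle 2 (both ligands), Vehicle 1 (Shh) or Ihh 2 (Ihh) and highest without Vehicle 3. Member counts were highest without Ihh 1 (both ligands) or Ihh 3 (Shh), and 0 for Shh without Vehicle 1, Vehicle 2, Shh 1, Shh 2, Shh 3 or Ihh 2.

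With the replicate block 379 genes were called for both ligands, 522 for Shh and 122 for Ihh, and 0, 1 and 0 members. In the Vehicle and Ihh arrays alone, a fit chosen after seeing the data, the block gave 280 genes and 0 members, with Ereg at -0.30 (limma adjusted p = 0.134).

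Signs turned in differences near 0, none past the threshold. For both ligands Hbegf became 0.017 with quantile normalization, 0.13 with array weights and 0.10 with Xist as a covariate, where Tgfa became -0.021 and Egfr -0.023. For Shh, Egfr became -0.0056 with centred arrays and -0.038 with Xist, Hbegf -0.034 with the mean of probe sets, Tgfa -0.0044 with array weights and -0.0099 with Xist, and Nrg4 0.037 with the mean of probe sets. For Ihh, Hbegf became 0.044 and Nrg1 -0.028 with array weights, and Hbegf 0.036, Tgfa -0.033 and Egfr -0.0079 with Xist. Between the ligands Egfr became 0.062 with the mean of probe sets and Tgfa -0.013 with array weights. Without 1 array the ranges that crossed 0 were, for both ligands, -0.13 to 0.21 (Hbegf), -0.0044 to 0.058 (Tgfa) and -0.0042 to 0.11 (Egfr). For Shh they were -0.046 to 0.30 (Hbegf), -0.025 to 0.094 (Tgfa), -0.030 to 0.082 (Egfr) and -0.10 to 0.036 (Nrg4). For Ihh they were -0.22 to 0.13 (Hbegf), -0.039 to 0.082 (Tgfa) and -0.062 to 0.074 (Nrg1), and between the ligands -0.052 to 0.072 (Tgfa).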
